A study of Mus musculus with 12 samples.

Results

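The cyclins and cyclin-dependent kinases that drive cells through division were followed in confluent PER2::LUC mouse embryonic fibroblasts (MEFs) given an excess of S-adenosylmethionine (SAM), of adenine, or of a methyl cycle inhibitor. The 10 genes, picked by symbol, were the D-type cyclins Ccnd1, Ccnd2, and Ccnd3, the E-type cyclins Ccne1 and Ccne2, the mitotic cyclins Ccna2, Ccnb1, and Ccnb2, and the kinases Cdk1 and Cdk2. All 10 were among the 12591 genes of the deposited table. The MEFs (strain label C57 PER2::LUC) carried a luciferase fused to the clock protein PER2, and were grown to confluence in 3 dishes per group. The control group (CTL) received 3.3 mM HCl, the solvent of adenine, and the same HCl was present in every other group. The DZ group received 10 μM Deazaneplanocin A, an inhibitor of the enzyme AHCY that clears S-adenosylhomocysteine, the Adenine group 1 mM adenine, and the SAM group 1 mM SAM. Polyadenylated RNA was sequenced 24 h later. The labels do not say whether the dishes of a group came from separate cultures, so the p-values measure the spread between dishes, which may be technical. The study describes the PER2::LUC MEFs of its rhythm recordings as immortalized. In bulk RNA such as this, fewer cells of a kind and less RNA per cell cannot be told apart.

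Cyclins are regulatory subunits whose periodic synthesis and destruction switch cyclin-dependent kinases on and off. D-type cyclins pair with CDK4 and CDK6 in response to growth signals, E-type cyclins pair with CDK2 at entry into S phase, cyclin A2 acts with CDK2 and CDK1 through S phase and G2, and B-type cyclins take CDK1 into mitosis. Confluent fibroblasts are largely held out of the cycle by contact with their neighbors, and the messengers of the E, A, and B cyclins are normally low in resting cells.

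The values below are the deposited log2 CPM (CPM, read counts scaled to normalized library sizes), in which an increase of 1 is a doubling. The reads on listed genes ranged from 45649534 to 56789090 per library, and the 10 genes had between 241 reads (Ccne2 in CTL) and 66946 reads (Ccnd1 in SAM) in a library. Of 10 fibroblast markers 8 were listed (Lum and Dcn were not), and their summed level lay between 14.41 and 14.44 on the log2 CPM scale in CTL, 14.76 and 14.79 in DZ, 14.56 and 14.70 in Adenine, and 13.95 and 14.07 in SAM. The lower sum in SAM came from Fn1, whose mean was 13.56 in CTL and 11.99 in SAM, while the other 7 had higher means in SAM than in CTL, such as Col1a1 (11.68 and 11.99) and Vim (10.49 and 10.92). Of 13 leukocyte, endothelial, and epithelial markers 1 was listed, Cd68, with means of 1.80 in CTL, 1.69 in DZ, 3.52 in Adenine, and 4.07 in SAM. Cd68 thus moved with the cyclins described next, and its part in those results was not tested.

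Nearly the whole set was higher under adenine and SAM, whereas under DZ every gene stayed within 0.38 of CTL on the log2 scale. Under adenine all 10 genes passed the test upward (limma, Benjamini-Hochberg adjusted over all genes, FDR under 0.01, hereafter called), beside 30.6% of all genes called upward and 31.0% downward. Under SAM 9 genes were called higher and 1, Ccnd2, was not called, beside 33.7% upward and 35.7% downward among all genes. Under DZ 4 genes were called higher (Ccnd1, Ccnb1, Ccnb2, and Cdk1), 2 lower (Ccnd3 and Cdk2), and 4 were not called, beside 22.6% upward and 23.4% downward among all genes, so the DZ calls were not far from the background. The median log2 fold change of the 10 genes was 1.33 for adenine, 1.72 for SAM, and 0.03 for DZ, beside -0.003, -0.015, and -0.0057 over all genes. The 3 treatments were compared with the same CTL dishes. The dishes of treated and control cells did not overlap in 10 genes under adenine (74.7% of all genes), 9 under SAM (77.6%), and 7 under DZ (65.4%). Scaling by plain read totals moved the median of all genes under SAM to 0.11 and the share of calls that were higher from 48.5% to 61.2%, so SAM changes near that size depend on the scaling.

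**Figure D1:**
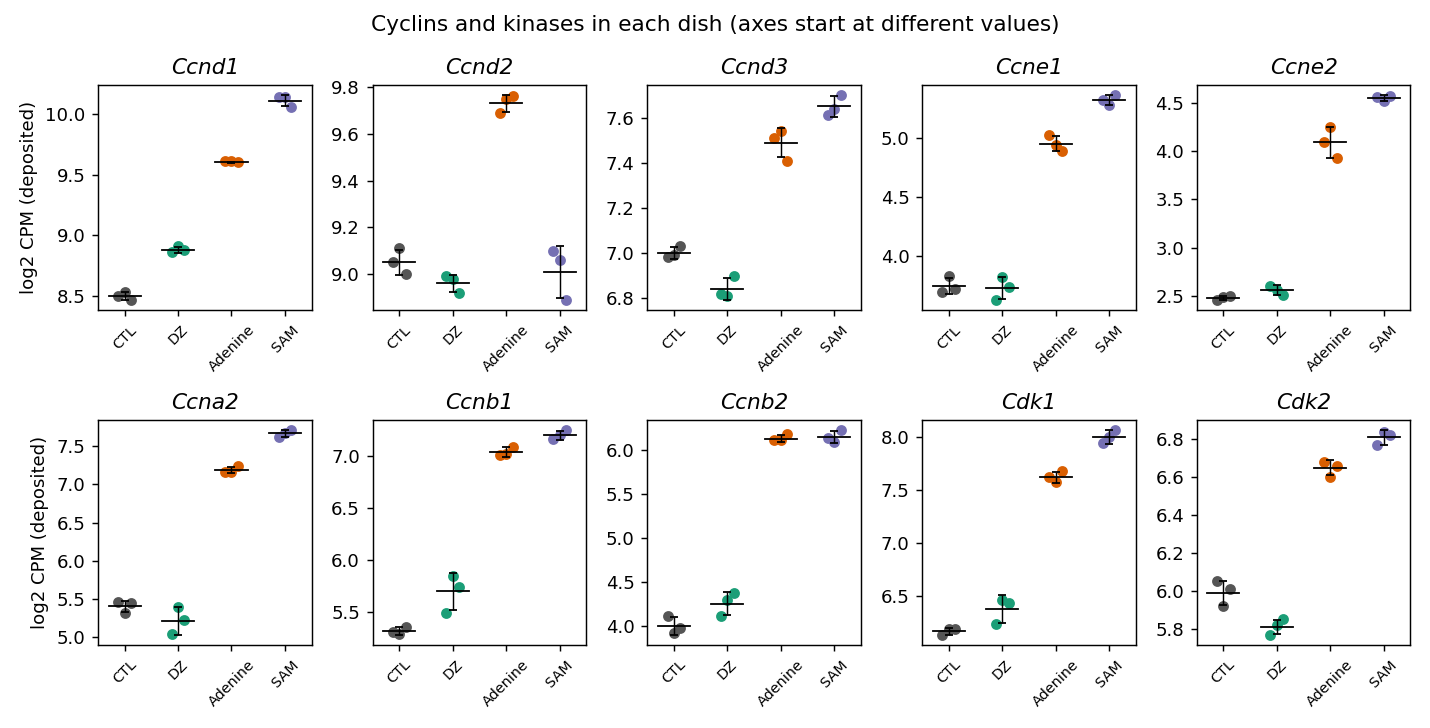
Deposited log2 CPM (vertical axes, which start at different values) of the 10 genes in each of the 12 dishes, with 3 points per group, the group mean as a bar, and its SD as whiskers. For 9 genes every Adenine and SAM dish lay above every CTL and DZ dish, while for Ccnd2 only the Adenine dishes did.

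SAM and adenine were given at the same concentration for the same time, so they could be set against each other directly. SAM gave the higher level for 7 of the 10 genes and the lower level for Ccnd2, and Ccnb1 and Ccnb2 were not called, beside 20.8% of all genes upward and 22.0% downward. The median difference of the 10 genes was 0.27, beside 0.00012 over all genes, and the dishes did not overlap in 9 of the 10 (61.3% of all genes). With plain read totals 63.2% of all calls between SAM and adenine were higher, instead of 48.6%. DZ was used at another concentration, and its values are only set beside those of the other compounds.

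**Figure D2:**
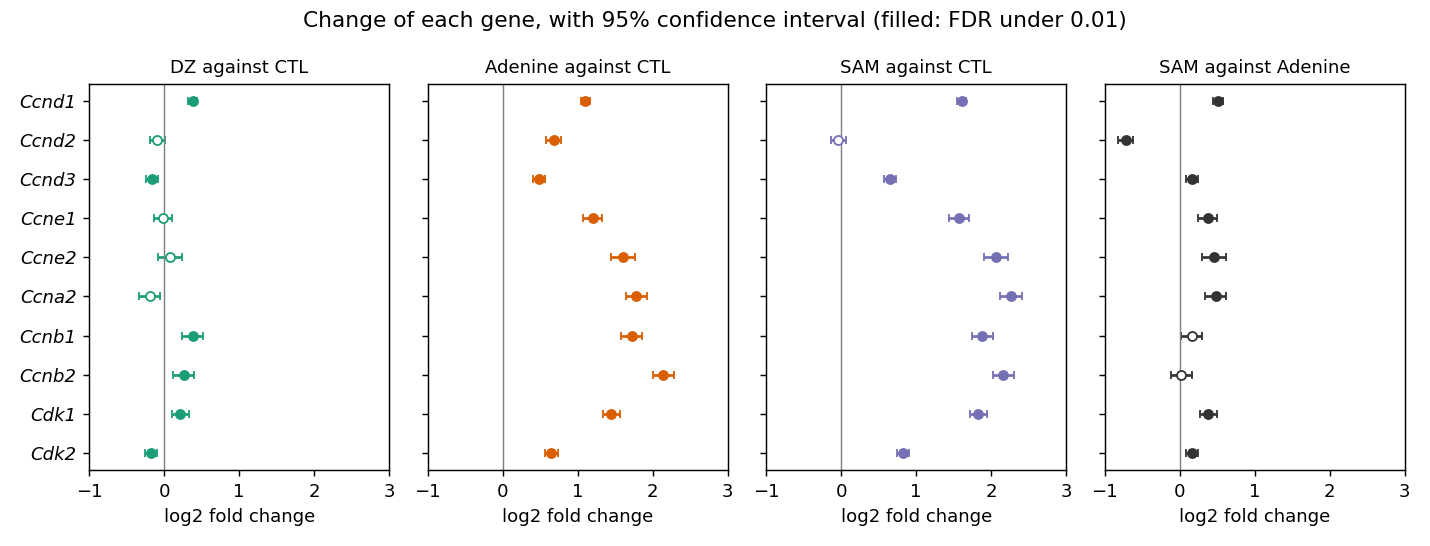
Log2 fold change of each gene (horizontal axis) in the 4 comparisons, with 95% confidence intervals from limma, filled where the gene passed an FDR of 0.01 and open where it did not. Adenine changes ran from 0.49 (Ccnd3) to 2.14 (Ccnb2) and SAM changes from 0.65 (Ccnd3) to 2.26 (Ccna2) apart from Ccnd2 at -0.038, a value whose sign depended on the scaling, and no DZ change reached 0.5 in either direction.

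Among the D-type cyclins, which couple growth signals to the cycle, Ccnd1 rose under every compound, Ccnd3 rose under adenine and SAM, and Ccnd2 rose under adenine and was not called under SAM or DZ. Ccnd1 (cyclin D1, chromosome 7, 144483668 to 144493662, GRCm39, minus strand) was at 8.50, 8.53, and 8.47 log2 CPM in the CTL dishes, 8.86, 8.91, and 8.88 in DZ, 9.61, 9.61, and 9.60 in Adenine, and 10.14, 10.14, and 10.06 in SAM. The 4 groups were fully separated in the order CTL, DZ, Adenine, SAM. The log2 fold changes against CTL were 0.38 ± 0.029 (SE) for DZ (adjusted p = 3.49e-08), 1.10 ± 0.029 for adenine (adjusted p = 7.53e-14), and 1.61 ± 0.029 for SAM (adjusted p = 4.54e-16), the last a 3.05-fold increase. SAM exceeded adenine by 0.51 (95% confidence interval 0.44 to 0.57).

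Ccnd2 (cyclin D2, chromosome 6, 127102125 to 127129156, minus strand) was at 9.05, 9.11, and 9.0 log2 CPM in CTL, 8.99, 8.98, and 8.92 in DZ, 9.69, 9.75, and 9.76 in Adenine, and 9.10, 9.06, and 8.89 in SAM. The Adenine dishes stood above all others, and the SAM dishes overlapped those of CTL. The rise under adenine was 0.68 ± 0.046 (adjusted p = 2.79e-09, 1.6-fold), whereas the value for SAM was -0.038 (95% confidence interval -0.14 to 0.061, adjusted p = 0.463) and that for DZ -0.09 (-0.19 to 0.0093, adjusted p = 0.11). Ccnd2 was lower in SAM than in Adenine by a log2 difference of -0.72 ± 0.046 (adjusted p = 7.18e-09), the opposite sign to the other genes called in that comparison. The SAM value of Ccnd2 against CTL was the least settled of the set, since it became 0.23 and was called under quantile normalization (adjusted p = 0.000897), 0.084 with plain read totals (adjusted p = 0.101), and 0.026 without SAM replicate 3 (adjusted p = 0.486). The difference from adenine lay between -0.76 and -0.59 in the 18 alternatives and was called in each.

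Ccnd3 (cyclin D3, chromosome 17, 47815767 to 47910624, plus strand) was at 6.98, 6.99, and 7.03 log2 CPM in CTL, 6.82, 6.81, and 6.90 in DZ, 7.51, 7.54, and 7.41 in Adenine, and 7.61, 7.64, and 7.70 in SAM. Adenine and SAM dishes lay above, and DZ dishes below, every CTL dish. It rose by 0.49 ± 0.037 under adenine (adjusted p = 1.15e-08) and by 0.65 ± 0.037 under SAM (adjusted p = 2.60e-10), and its DZ value was -0.16 ± 0.037 (adjusted p = 0.00224). Under adenine and SAM these were the smallest called changes among the 8 cyclins of the set.

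The balance among the D-type cyclins therefore shifted, as seen in differences taken inside a single library, which no scaling factor of a library can move. These pairs were chosen after their values were seen. Ccnd1 minus Ccnd2 was -0.55 ± 0.023 (SD, n = 3) in CTL, -0.078 ± 0.043 in DZ, -0.13 ± 0.038 in Adenine, and 1.10 ± 0.07 in SAM. The SAM dishes, at 1.04, 1.08, and 1.17, were the only ones above 0. Ccnd3 minus Ccnd2 was -2.05 in CTL, -2.12 in DZ, -2.24 in Adenine, and -1.36 in SAM. Of 28 such comparisons (7 pairs of genes, 4 comparisons each) the dishes did not overlap in 23, where a two-sided exact permutation test gives p = 0.1, the smallest that 3 dishes against 3 allow (0.122 after Benjamini-Hochberg adjustment over the 28). Expressed per kilobase of the canonical transcript, Ccnd1 made up 39.3% ± 0.191 (SD, n = 3) of the D-type messenger in CTL, 47.8% ± 0.578 in DZ, 47.9% ± 0.336 in Adenine, and 61.6% ± 0.318 in SAM. Ccnd2 made up 34.5% in CTL, 30.3% in DZ, 31.4% in Adenine, and 17.3% in SAM by the same measure.

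**Figure D3:**
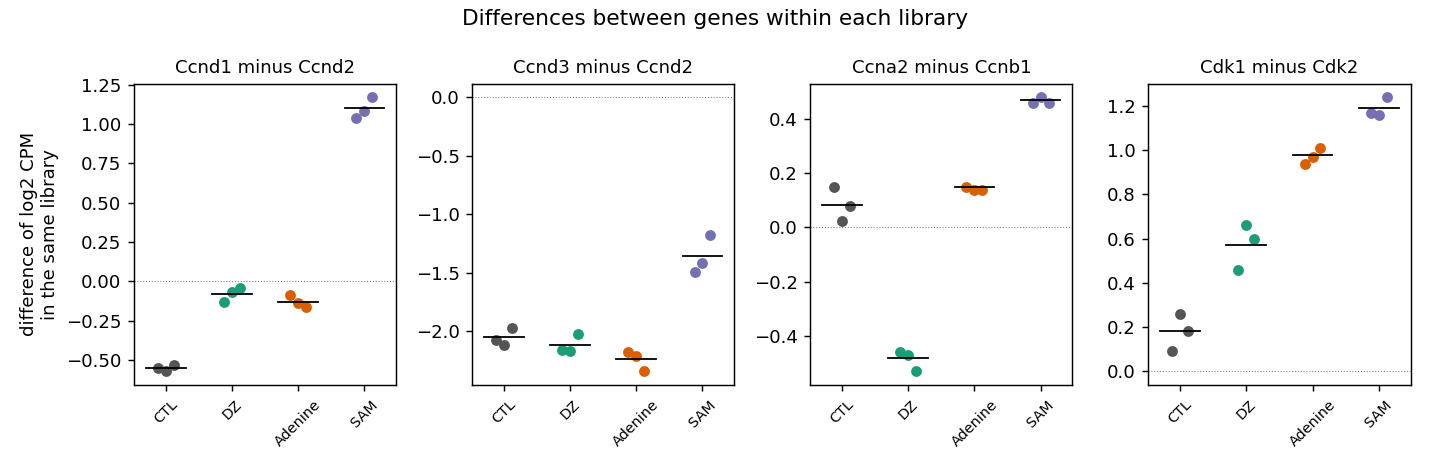
Difference of log2 CPM between 2 genes in the same library (vertical axes, which start at different values) for 4 pairs, with 3 dishes per group as points and their mean as a bar. SAM dishes lay above the other groups in each pair, with means of 1.10 for Ccnd1 minus Ccnd2, -1.36 for Ccnd3 minus Ccnd2, 0.47 for Ccna2 minus Ccnb1, and 1.19 for Cdk1 minus Cdk2, and DZ dishes had the lowest values of Ccna2 minus Ccnb1.

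The E-type cyclins, which activate CDK2 as cells enter S phase, both rose under adenine and further under SAM, and were not called under DZ. Ccne1 (cyclin E1, chromosome 7, 37797404 to 37808264, minus strand) was at 3.70, 3.83, and 3.72 log2 CPM in CTL, 3.63, 3.82, and 3.74 in DZ, 5.02, 4.94, and 4.89 in Adenine, and 5.32, 5.28, and 5.36 in SAM. Its DZ dishes were interleaved with those of CTL, at a difference of -0.018 (95% confidence interval -0.14 to 0.11, adjusted p = 0.818). It rose by 1.20 ± 0.06 under adenine (adjusted p = 6.17e-11) and by 1.57 ± 0.06 under SAM (adjusted p = 1.69e-12). Ccne2 (cyclin E2, chromosome 4, 11190303 to 11204947, plus strand) was the least abundant member per length of transcript, at 2.46, 2.49, and 2.50 log2 CPM in CTL, 2.6, 2.56, and 2.51 in DZ, 4.09, 4.25, and 3.93 in Adenine, and 4.56, 4.52, and 4.57 in SAM. The DZ dishes sat just above CTL, by 0.075 (-0.088 to 0.24, adjusted p = 0.417), and those of Adenine and SAM far above. It rose 3.05-fold under adenine (log2 1.61 ± 0.077, adjusted p = 3.82e-11) and 4.19-fold under SAM (log2 2.07 ± 0.077, adjusted p = 1.28e-12). SAM exceeded adenine by 0.37 for Ccne1 (adjusted p = 9.55e-05) and by 0.46 for Ccne2 (adjusted p = 0.000129).

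Cyclin A2 and the B-type cyclins, which carry cells from S phase into mitosis, rose strongly, with Ccnb2 having the highest estimate of the 10 genes under adenine and Ccna2 under SAM, where their intervals overlapped. Ccna2 (chromosome 3, 36619014 to 36626299, minus strand) was at 5.46, 5.32, and 5.44 log2 CPM in CTL, 5.04, 5.39, and 5.22 in DZ, 7.16, 7.16, and 7.24 in Adenine, and 7.62, 7.68, and 7.71 in SAM. DZ and CTL dishes overlapped, and Adenine and SAM dishes were separated from them and from each other. Ccna2 rose 3.44-fold under adenine (log2 1.78 ± 0.066, adjusted p = 2.42e-12) and 4.8-fold under SAM (log2 2.26 ± 0.066, adjusted p = 8.72e-14), and SAM exceeded adenine by 0.48 (adjusted p = 2.13e-05). Its DZ value, -0.19 (95% confidence interval -0.33 to -0.049), missed the threshold (adjusted p = 0.0226).

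Ccnb1 (chromosome 13, 100915153 to 100923116, minus strand) was at 5.31, 5.29, and 5.36 log2 CPM in CTL, 5.49, 5.85, and 5.74 in DZ, 7.01, 7.02, and 7.09 in Adenine, and 7.16, 7.20, and 7.25 in SAM. All 4 groups were separated, DZ being the most scattered. It rose by 0.38 ± 0.065 under DZ (adjusted p = 0.00016), by 1.72 ± 0.065 under adenine (adjusted p = 2.86e-12), and by 1.88 ± 0.065 under SAM (adjusted p = 5.83e-13). Ccnb2 (chromosome 9, 70314966 to 70328874, minus strand) was at 4.11, 3.92, and 3.97 log2 CPM in CTL, 4.11, 4.29, and 4.37 in DZ, 6.11, 6.12, and 6.18 in Adenine, and 6.14, 6.09, and 6.23 in SAM. It rose 4.4-fold under adenine (log2 2.14 ± 0.065, adjusted p = 3.57e-13) and 4.46-fold under SAM (log2 2.16 ± 0.065, adjusted p = 1.24e-13), and by 0.26 ± 0.065 under DZ (adjusted p = 0.00345), although the DZ and CTL dishes overlapped. The B-type cyclins were the members for which SAM was not called different from adenine, with a difference of 0.16 (95% confidence interval 0.023 to 0.30, adjusted p = 0.0461) for Ccnb1 and 0.02 (-0.12 to 0.16, adjusted p = 0.817) for Ccnb2. The Ccnb1 difference was called with plain read totals (0.22, adjusted p = 0.00872) and in a model of the 2 groups alone (adjusted p = 0.00423).

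Ccna2 and Ccnb1 parted under DZ. Ccna2 minus Ccnb1 inside a library, a pair chosen after seeing the values, was 0.084 ± 0.061 (SD, n = 3) in CTL, -0.48 ± 0.038 in DZ, 0.15 ± 0.0052 in Adenine, and 0.47 ± 0.009 in SAM. The DZ dishes, at -0.46, -0.47, and -0.53, lay below all others.

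Reads of Ccnb1 could be shared with 2 processed pseudogenes that the table lists, Ccnb1-ps (98.0% identical over 1303 bases of transcript) and Gm12856 (96.9% over 1310 bases). Ccnb1-ps was higher by 0.47 under DZ, 1.45 under adenine, and 1.75 under SAM, and Gm12856 by 0.26, 1.40, and 1.57. Their reads together came to 11.7% of those of Ccnb1 in CTL, 11.8% in DZ, 9.66% in Adenine, and 10.3% in SAM, and how they were divided is uncertain. Ccnd1, Ccnd3, Ccne1, Ccne2, Ccna2, and Cdk1 each overlap a listed gene on the opposite strand. The library kit keeps the strand, whether the counting used it is not given in the sources used here, and the partners of Ccnd1 (LTO1, -0.14 under adenine and -0.21 under SAM), Ccnd3 (Bysl, -0.10 and -0.18), Ccne2 (Ints8, 0.04 and 0.20), and Ccna2 (Exosc9, -0.18 and -0.25) had small changes beside those of the cyclins. Under DZ, however, Bysl rose by 0.79, with Ccnd3 at -0.16. No changes are given for the partners of Ccne1 (1600014C10Rik) and Cdk1 (Ank3), and their part was not tested.

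The kinases differed in how far they moved, with Cdk1, the mitotic kinase, rising more than Cdk2, the partner of the E and A cyclins. Cdk1 (chromosome 10, 69170976 to 69236595, minus strand) was at 6.14, 6.19, and 6.19 log2 CPM in CTL, 6.24, 6.47, and 6.44 in DZ, 7.62, 7.57, and 7.68 in Adenine, and 7.94, 8.0, and 8.06 in SAM. The 4 groups did not overlap and lay in the order CTL, DZ, Adenine, SAM. It rose by 0.21 ± 0.053 under DZ (adjusted p = 0.00273), 2.74-fold under adenine (log2 1.45 ± 0.053, adjusted p = 1.79e-12), and 3.56-fold under SAM (log2 1.83 ± 0.053, adjusted p = 7.13e-14). SAM exceeded adenine by 0.38 (adjusted p = 2.46e-05). Cdk2 (chromosome 10, 128533796 to 128540963, minus strand) was at 6.05, 5.92, and 6.01 log2 CPM in CTL, 5.77, 5.82, and 5.85 in DZ, 6.68, 6.60, and 6.66 in Adenine, and 6.77, 6.84, and 6.82 in SAM. DZ dishes lay below CTL and those of Adenine and SAM above. The changes were -0.18 ± 0.038 for DZ (adjusted p = 0.00092), 0.65 ± 0.038 for adenine (adjusted p = 4.10e-10), and 0.82 ± 0.038 for SAM (adjusted p = 1.93e-11). Cdk1 minus Cdk2 inside a library, again a pair chosen after its values were seen, was 0.18 in CTL, 0.57 in DZ, 0.98 in Adenine, and 1.19 in SAM, with no overlap between groups.

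Ccnd1, Ccnb1, Ccnb2, and Cdk1 were called higher under every compound. The promoters of Ccnb1, Ccnb2, and Cdk1 are shown, and Ccnd1 had no window. RefSeq windows from 250 bases before to 50 bases after the start of transcription (table of build GRCm38.p6, each window found once in GRCm39, whose coordinates are given) were available for 6 of the 10 genes, as 7 windows, Ccnd3 having 2. The windows of Ccnb1, Ccnb2, and Cdk1 are written 5′ to 3′ in the direction of the gene, with capitals for matches to the motifs searched on both strands.
Ccnb1, chr13:100922945-100923244, minus strand: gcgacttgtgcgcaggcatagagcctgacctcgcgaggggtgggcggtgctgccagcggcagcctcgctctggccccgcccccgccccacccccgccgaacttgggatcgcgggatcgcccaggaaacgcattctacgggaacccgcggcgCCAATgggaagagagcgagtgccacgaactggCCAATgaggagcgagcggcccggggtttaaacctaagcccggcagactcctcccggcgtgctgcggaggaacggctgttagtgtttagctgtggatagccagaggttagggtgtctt
Ccnb2, chr9:70328787-70329086, minus strand: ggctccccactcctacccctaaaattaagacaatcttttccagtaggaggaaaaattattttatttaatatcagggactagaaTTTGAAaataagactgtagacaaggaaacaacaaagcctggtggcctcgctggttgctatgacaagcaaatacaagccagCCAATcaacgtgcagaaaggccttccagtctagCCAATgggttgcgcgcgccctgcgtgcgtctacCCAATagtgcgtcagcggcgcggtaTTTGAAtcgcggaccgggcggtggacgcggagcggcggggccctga
Cdk1, chr10:69188693-69188992, minus strand: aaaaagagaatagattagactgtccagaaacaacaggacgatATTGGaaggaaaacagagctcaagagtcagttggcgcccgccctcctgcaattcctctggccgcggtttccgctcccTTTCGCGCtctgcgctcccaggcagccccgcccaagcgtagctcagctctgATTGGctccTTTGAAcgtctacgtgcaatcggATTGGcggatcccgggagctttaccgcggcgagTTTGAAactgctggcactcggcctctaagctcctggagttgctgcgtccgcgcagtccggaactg
The motifs were the cell cycle gene homology region (CHR, TTTGAA), which in many mitotic genes lies near CCAAT boxes, the CCAAT box (CCAAT), the E2F site (TTTCGCGC, TTTGGCGC, or TTTCCCGC), the AP-1 site (TGACTCA), and the CRE (TGACGTCA). The CHR string TTTGAA was found in 2 of the 7 windows, those of Ccnb2 and Cdk1, against 17.9% of all 32851 windows of the table. Other forms of the CHR were not searched, so a window without this string may still hold one. A CCAAT box was in 5 of the 7 (37.4% of all windows), 2 copies in Ccnb1, 3 in Ccnb2, 3 in Cdk1, and 1 each in Cdk2 and in a window of Ccnd3. An E2F site was in 2 of the 7 (1.84% of all windows), Cdk1 and Cdk2. AP-1 sites and CREs were in 0 of the 7, against 5.2% and 1.79% of all windows. The Cdk1 window lies inside the annotated gene, whose longest span starts further upstream. No window was available for Ccnd1, Ccnd2, Ccne2, or Ccna2. A match is a string of letters, not a site shown to be bound.

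Some small calls changed when a dish was left out, which also leaves fewer dishes to estimate from. Over all genes, DZ calls numbered 5782 with every dish and 4953 to 5244 with a dish left out. Under DZ, the fall of Ccnd3 was lost without CTL replicate 3 (-0.14, adjusted p = 0.0126) or DZ replicate 2 (-0.14, adjusted p = 0.0134). The DZ rise of Ccnb2 was lost without CTL replicate 2, CTL replicate 3, DZ replicate 2, or DZ replicate 3 (0.22, 0.24, 0.24, and 0.20, adjusted p between 0.0142 and 0.0223), and that of Cdk1 without CTL replicate 1, DZ replicate 2, or DZ replicate 3 (0.20, 0.17, and 0.19, adjusted p = 0.0135, 0.0183, and 0.0166). Ccna2 was called lower under DZ without DZ replicate 2 (-0.28, adjusted p = 0.00082). The number of the 10 genes called under DZ thus ran from 4 to 6 as each dish was left out, 4 being reached without CTL replicate 3, DZ replicate 2, or DZ replicate 3. Between SAM and adenine, the call for Ccnd3 (0.16, adjusted p = 0.0021) was lost without Adenine replicate 3 (0.12, adjusted p = 0.0143) and that for Cdk2 (0.16, adjusted p = 0.00209) without Adenine replicate 2 (0.14, adjusted p = 0.0141) or SAM replicate 2 (0.15, adjusted p = 0.0115). The calls for adenine and SAM against CTL stood without any single dish.

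Levels can be compared between genes only per length of transcript. The length was that of the canonical transcript of each gene, and use of other transcripts could change ranks that lie close together. On the log2 scale of CPM per kilobase, the D-type cyclins were the 3 most abundant members in every group, with Ccnd1 first at 6.58 in CTL and 8.19 in SAM. Ccne1 (2.69 in CTL) and Ccne2 (0.10 in CTL) were the lowest in every group. Ccna2 moved from the 7th place in CTL (3.84) to the 4th in SAM (6.10), above Ccnb1 (5.86), Cdk1 (5.87), and Cdk2 (5.59), and Cdk2 moved from the 4th place (4.77) to the 7th. In SAM, Ccnb1 and Cdk1 differed by less than the spread of their dishes. The D-type cyclins made up 83.5% ± 0.565 (SD, n = 3) of the messenger of the 8 cyclins per kilobase in CTL, 83.1% ± 1.35 in DZ, 72.3% ± 0.597 in Adenine, and 70.7% ± 1.15 in SAM. These shares were computed after the values were seen.

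The genes that pair with or regulate these kinases were followed as a list of 24, of which 23 were measured. The calls were 18 up and 1 down under adenine, 18 up and 3 down under SAM, and 6 up and 2 down under DZ. The median log2 fold changes were 0.65, 1.06, and 0.09. Among all genes 30.6% were called upward and 31.0% downward under adenine, 33.7% and 35.7% under SAM, and 22.6% and 23.4% under DZ. Cks1b and Cks2, small proteins bound to the kinases, rose by 0.86 and 1.19 under adenine and by 1.10 and 1.39 under SAM. Cdc25b and Cdc25c, phosphatases that activate CDK1, rose by 0.83 and 0.92 under adenine and by 1.41 and 1.68 under SAM, and Cdc25a by 0.24 and 0.45. Wee1 and Pkmyt1, kinases that restrain CDK1, rose as well, by 0.72 and 1.81 under adenine and by 1.10 and 2.21 under SAM. Cdc20 and Fzr1, which direct destruction of mitotic cyclins, rose by 1.31 and 0.65 under adenine and by 1.67 and 1.06 under SAM, and Skp2, which directs destruction of the inhibitor p27, by 0.88 and 1.24.

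Cdk4 and Cdk6, the kinases that D-type cyclins activate, changed by at most 0.50. Cdk6 rose by 0.27 under DZ, 0.50 under adenine, and 0.38 under SAM. Cdk4 was at 9.13, 9.14, and 9.16 log2 CPM in CTL and 9.22, 9.22, and 9.31 in SAM, a difference of 0.10 (adjusted p = 0.0068) whose call was lost without CTL replicate 1, 2, or 3 or SAM replicate 3 (differences between 0.07 and 0.39 over all alternatives), and its values were 0.057 under adenine (adjusted p = 0.12, but called with plain read totals and with quantile normalization, where it was 0.24) and -0.16 under DZ (adjusted p = 0.000559, not called with quantile normalization). The CDK-activating subunits Cdk7 and Ccnh had values of -0.07 and 0.069 under adenine and -0.16 and 0.25 under SAM, the Cdk7 call under SAM being lost without CTL replicate 1, 2, or 3 or SAM replicate 2 and with plain read totals.

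The inhibitors did not move as a group. Cdkn1a, which encodes p21, was at 3.98, 3.90, and 3.77 log2 CPM in CTL, 3.00, 3.08, and 3.31 in DZ, 4.39, 4.45, and 4.45 in Adenine, and 2.70, 2.61, and 2.88 in SAM. It was above CTL in all 3 Adenine dishes and below it in all DZ and SAM dishes. The changes were -0.75 for DZ (adjusted p = 4.82e-06), 0.54 for adenine (adjusted p = 6.01e-05), and -1.16 for SAM (adjusted p = 9.98e-09), and SAM differed from adenine by -1.70 ± 0.09 (adjusted p = 7.04e-10). Cdkn1b, which encodes p27, fell by 0.51 under SAM (adjusted p = 5.51e-09). Its value under adenine was -0.13 (adjusted p = 0.00479), a call lost without CTL replicate 2, CTL replicate 3, Adenine replicate 1, or Adenine replicate 2 and under 2 of the other scalings. Cdkn2c, which encodes an inhibitor of CDK4 and CDK6, rose by 1.42 under adenine and 1.57 under SAM. Cdkn2a rose by 0.34 and 0.71 as a whole gene. Not all of its products inhibit these kinases, and which of its transcripts rose cannot be told from gene values.

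**Figure D4:**
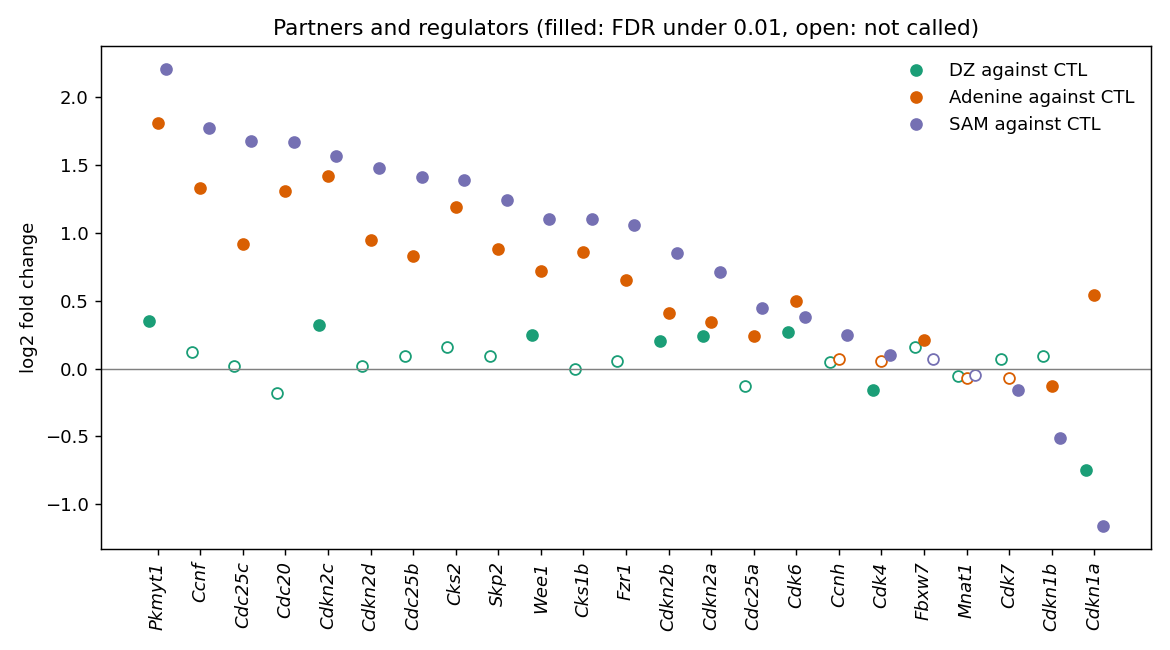
Log2 fold change against CTL (vertical axis) of the 23 measured partners and regulators under DZ, adenine, and SAM, ordered by the SAM value and filled where the FDR was under 0.01. The points run from 2.21 (Pkmyt1, SAM) to -1.16 (Cdkn1a, SAM), and Cdkn1a is the gene with adenine at 0.54 and SAM and DZ below 0.

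Cyclins and kinases with other roles did not share the rise. Of 25 such genes 24 were measured. The calls were 4 up and 13 down under adenine, 4 up and 12 down under SAM, and 7 up and 6 down under DZ. The medians were -0.16, -0.19, and -0.0043. The shares of all genes were 30.6% upward and 31.0% downward under adenine, 33.7% and 35.7% under SAM, and 22.6% and 23.4% under DZ. The DZ counts were near those shares. With plain read totals the counts were 6 up and 9 down under adenine and 8 up and 10 down under SAM. Under DZ 4 instead of 7 were up without CTL replicate 1, CTL replicate 2, or DZ replicate 1. Ccng2, a cyclin linked to cell cycle arrest, was at -0.72 under DZ (adjusted p = 3.87e-10), 0.22 under adenine, and 0.46 under SAM, and Ccnc, a subunit of Mediator, at -0.29, -0.21, and -0.33. Cdk9, a transcription kinase, was at 0.39 under DZ (adjusted p = 3.28e-07), 0.065 under adenine, and -0.056 under SAM. Ccng1 was at 0.093, 0.14, and 0.037, and Cdk5, a neuronal kinase, at 0.086, 0.23, and 0.17. The adenine call of Ccnc was lost without CTL replicate 2 or 3 or Adenine replicate 1 or 3, that of Ccng1 without CTL replicate 1 or 3 or Adenine replicate 2 or 3, and that of Cdk5 without CTL replicate 2 or Adenine replicate 1. The genes named here are a fixed subset, and most genes of the list called lower under adenine and SAM are not among them.

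Markers of proliferation moved with the cyclins. All 16 were measured, with 15 up and 1 down under both adenine and SAM (medians of 1.37 and 1.78). Under DZ 9 were up and 1 down, with a median of 0.21. Over all genes 30.6% were called upward and 31.0% downward under adenine, 33.7% and 35.7% under SAM, and 22.6% and 23.4% under DZ. The DZ count was 6 up and 1 down without DZ replicate 2, and 0 were down without CTL replicate 1, CTL replicate 2, DZ replicate 1, or DZ replicate 3. Mki67 rose by 2.02 under adenine and 2.26 under SAM, Top2a by 1.48 and 1.57, Plk1 by 1.47 and 1.85, and Pcna by 0.93 and 1.23. The exception was Mcm2, a subunit of the replicative helicase, at -0.11 under adenine and -0.13 under SAM, calls that were lost with quantile normalization, with plain read totals, and without CTL replicate 3, and under adenine also without CTL replicate 1, Adenine replicate 1, or Adenine replicate 2. The lists were chosen with earlier results of these data known, so their direction is not independent evidence. In the confluent cultures of its rhythm recordings, the study saw neither cell cycle changes nor cell death from SAM. In cells plated sparsely, it found that 1 mM SAM held back growth and that cell counts then declined. The relation of these RNA values to cell division was not tested.

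Outside the 10 genes, those most like Cdk1 by Pearson r over the 12 libraries were Pbk (r = 0.9987), Dna2 (0.9986), and Mcm5 (0.9985). Those most like Ccne1 were Ckap4 (0.9978), Shcbp1 (0.9974), and Mtfr2 (0.9972), and those most like Ccnd1 were Chaf1b (0.9966), AU020206 (0.9963), and Rrm1 (0.9963). The 12 libraries fall into 4 groups, so these values mainly describe similarly spaced group means. Pbk rose by 1.82 under adenine and 2.28 under SAM, Ckap4 by 0.69 and 0.90, Shcbp1 by 2.11 and 2.70, and Chaf1b by 1.32 and 1.89.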

How the data were processed

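RNA of 12 dishes (CTL, DZ, Adenine, and SAM, 3 each) was analyzed. Per the labels and the study's methods, the authors trimmed reads with Trimmomatic, aligned them to GRCm39 with HISAT2, quantified transcripts with StringTie, and kept genes with at least 1 CPM in every sample. The table they deposited holds log2 CPM on normalized library sizes from edgeR, with the scaling method not given in the sources used here. Whole reads recovered from it with a prior count of 2 (100% of values within 0.1 of a whole number) gave the depth, 45649534 to 56789090 reads per library.

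Differences were fitted by limma 3.58.1 (R 4.3.3) in 1 model of the 4 groups, with empirical Bayes moderation and a variance trend, adjusted by Benjamini-Hochberg over 12591 genes and called at an FDR of 0.01. The model was tested on simulated data, where it missed the first criterion set for recovering small changes, and the criterion was then limited to larger ones, so calls missed among small changes are to be allowed for. Fold changes are on the log2(CPM + prior) scale. The members and lists were chosen with earlier results of these data known. Genes named are the 10 members, fixed subsets of 3 lists, and the 3 genes most correlated with each of Cdk1, Ccne1, and Ccnd1. Symbols came from GENCODE vM39 (12575 of 12591 identifiers matched), and promoter windows from RefSeq. Same-numbered dishes did not deviate together (Pearson r across genes between -0.142 and 0.181). Python 3.11.15, numpy 2.4.6, pandas 2.3.3, scipy 1.17.1, and matplotlib 3.10.9 were used. The alternatives were 12 other settings and leaving out each library.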

Additional observations from a re-analysis of the deposited data

How the results depend on the processing

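The calls for adenine and SAM against CTL (10 and 9 of the 10 genes) were made under every alternative except that requiring an absolute log2 fold change of 0.5, which left 9 of the adenine calls (Ccnd3 was lost), and quantile normalization, which added Ccnd2 under SAM. The same requirement left 0 of the 6 DZ calls and 2 of the 8 calls between SAM and adenine, and over all genes it left 1536 of 5782 calls for DZ, 3386 of 7753 for adenine, 4425 of 8731 for SAM, and 1215 of 5382 between SAM and adenine. Leaving out each replicate in turn gave 4 to 6 calls for DZ, 10 for adenine, 9 for SAM, and 7 to 8 between SAM and adenine.

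Values near 0 changed sign, none of them called in the main analysis. Ccne1 under DZ was 0.0075 with plain read totals and ran from -0.063 to 0.032 as single replicates were left out. Ccnd2 under SAM was 0.23 with quantile normalization and 0.084 with plain read totals, and ran from -0.081 to 0.026 as replicates were left out. Ccnb2 between SAM and adenine ran from -0.017 to 0.05 in the same way. The cause was not tested. The call for Cdk1 under DZ was lost with no variance trend (adjusted p = 0.0114) and that for Ccnb2 with voom (adjusted p = 0.0118) and in a model of the 2 groups alone (adjusted p = 0.0135).

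With a replicate block, 6 of the 10 genes were called for DZ, 10 for adenine, 9 for SAM, and 8 between SAM and adenine, and no call of a member changed. The dishes share only a number. The lowest read number of a member in a library was 241 (Ccne2), and only 3 dishes per group stand behind each mean.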

Other observations

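DZ replicate 1 had the lowest value of its group for 7 of the 10 genes (Ccnd1, Ccne1, Ccna2, Ccnb1, Ccnb2, Cdk1, and Cdk2), with a median deviation of -0.068 from the group mean on the log2 scale. SAM replicate 3 had the highest value of its group for 7 of the 10, with a median deviation of 0.041, and the lowest for Ccnd1 and Ccnd2. The relation of these dishes to the changes described above was not tested beyond leaving each out.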
